A study of Mus musculus with 13 samples.

Results

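The epidermal differentiation complex is a cluster of genes on mouse chromosome 3 that encode proteins of cornifying epithelia. Its members were taken as the protein-coding genes of chr3 between 90 and 94 Mb (mm10) whose symbols start with S100a, Sprr or Lce, together with Ivl, Lor, Flg, Rptn, Tchh and Crnn. This gave 56 of 21900 protein-coding genes, of which 15 were S100a genes, 14 Sprr genes, 21 Lce genes and 6 single genes. The rule used symbols and positions and no measured value, but the members were chosen with earlier results of these data known. Binding of 3 proteins over these genes was read from chromatin immunoprecipitation with sequencing (ChIP-seq) in NU1 cells, a wild-type mouse urothelial cell line that became immortal by repeated passaging. Libraries were made with an antibody to STAG1, STAG2 or CTCF from cells in 2 states, proliferating and quiescent, with 2 biological replicates of each, giving 6 groups and 12 libraries. Proliferating cells grew in complete medium, and quiescent cells were grown to confluence and then held in complete medium to which 1 uM rosiglitazone (a PPAR gamma agonist) and 0.5 uM erlotinib (an EGF receptor inhibitor) had been added. All groups came from the same cell line. Every quiescent library combined confluence with both drugs, so confluence, rosiglitazone and erlotinib cannot be told apart. Whether replicates were separate cultures is known only from the label "biol rep". p-values measure the spread between these samples.

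Cohesin is a ring-shaped complex that holds loops of DNA, and STAG1 and STAG2 are alternative subunits of it. CTCF is a zinc finger protein that binds a defined DNA sequence and at which moving cohesin often stops. In skin, the genes of the complex are turned on in a set order as keratinocytes leave the basal layer, and AP-1, a dimer of Jun and Fos proteins, is a known regulator of several of them. Urothelium does not normally cornify, and genes of the complex are known to come on in squamous change of the bladder lining.

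Promoter sequences are given first for examples of genes with and without peaks on the promoter window, because whether a peak covered the start of a gene was one of the clearest differences between members. They are not the ends of the range, since windows of S100a13, S100a1 and S100a3, not printed here, had peaks in all 12 libraries. Each sequence is the RefSeq window from 250 bp before to 50 bp after the transcription start (GRCm38.p6, the same build as mm10), printed 5′ to 3′ on the strand of the gene. S100a6, S100a16 and S100a11 had peaks on the window in 11, 9 and 10 of 12 libraries. Sprr2d, Sprr1a and Ivl had none on the window in any library, though Sprr1a and Ivl had a peak within 10 kb in 2 and 5 libraries. Capitals mark a match to the core letters of the CTCF motif (CCA, NN, AG, NN and GGC in a row, on either strand, where N is any base) in S100a6, and matches to the AP-1 motif, TGANTCA, in those that hold it.
S100a6, chr3:90612644-90612943, plus strand: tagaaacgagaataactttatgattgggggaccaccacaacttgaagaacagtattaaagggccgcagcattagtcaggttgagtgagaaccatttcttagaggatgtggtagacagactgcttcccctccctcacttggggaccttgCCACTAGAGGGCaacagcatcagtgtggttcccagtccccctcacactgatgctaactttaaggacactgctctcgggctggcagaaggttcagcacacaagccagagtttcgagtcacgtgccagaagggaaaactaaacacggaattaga
S100a16, chr3:90537004-90537303, plus strand, no match to either motif: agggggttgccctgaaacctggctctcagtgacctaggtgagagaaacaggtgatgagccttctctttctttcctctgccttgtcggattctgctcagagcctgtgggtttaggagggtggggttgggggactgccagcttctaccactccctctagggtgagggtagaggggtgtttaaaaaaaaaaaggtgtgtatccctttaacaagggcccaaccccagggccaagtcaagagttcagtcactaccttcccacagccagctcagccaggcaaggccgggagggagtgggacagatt
S100a11, chr3:93520246-93520545, plus strand: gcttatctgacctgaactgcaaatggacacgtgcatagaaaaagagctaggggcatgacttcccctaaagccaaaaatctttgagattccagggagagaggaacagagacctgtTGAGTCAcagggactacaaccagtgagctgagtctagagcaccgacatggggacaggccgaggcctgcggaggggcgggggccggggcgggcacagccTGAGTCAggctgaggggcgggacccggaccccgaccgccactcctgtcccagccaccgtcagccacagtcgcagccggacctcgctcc
Sprr2d, chr3:92338890-92339189, plus strand: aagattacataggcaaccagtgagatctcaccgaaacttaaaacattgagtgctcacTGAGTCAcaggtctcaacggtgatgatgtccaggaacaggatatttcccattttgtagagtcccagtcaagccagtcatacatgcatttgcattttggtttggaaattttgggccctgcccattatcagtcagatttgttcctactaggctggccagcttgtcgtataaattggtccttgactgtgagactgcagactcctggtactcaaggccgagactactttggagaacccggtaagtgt
Sprr1a, chr3:92485832-92486131, minus strand: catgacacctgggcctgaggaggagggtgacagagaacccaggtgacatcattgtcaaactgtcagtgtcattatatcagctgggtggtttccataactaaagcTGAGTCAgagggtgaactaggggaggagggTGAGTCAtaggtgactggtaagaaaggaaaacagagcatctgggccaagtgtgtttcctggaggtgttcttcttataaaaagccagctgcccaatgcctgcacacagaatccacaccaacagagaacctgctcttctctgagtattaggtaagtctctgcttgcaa
Ivl, chr3:92573686-92573985, minus strand: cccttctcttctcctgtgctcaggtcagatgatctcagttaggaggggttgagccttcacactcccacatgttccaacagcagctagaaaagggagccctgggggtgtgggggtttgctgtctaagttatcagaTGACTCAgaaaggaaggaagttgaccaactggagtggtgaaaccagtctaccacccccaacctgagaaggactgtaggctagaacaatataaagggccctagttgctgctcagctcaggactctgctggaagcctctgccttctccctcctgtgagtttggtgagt

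The cluster ran from chr3:90511034-93564645, over 3.05 Mb, and was read with 10 kb added on each side. Gaps of over 200 kb between neighbouring members split it into 3 blocks. S100a1 to S100a9 formed a block of 12 genes over 0.185 Mb, S100a7l2 stood alone, and Lor to S100a10 held 43 genes over 1.48 Mb. The peak lists of the 12 libraries held between 34281 and 71757 peaks, and the deposited lists give no read totals, so sequencing depth is unknown. The CTCF quiescent replicate 2 list was the longest and stood apart from its partner, with 82 peaks in the cluster against 50. Of the 43 cluster sites called in a single library, 19 were called in that library. Marker lists were read for binding only, since peaks do not measure expression: 7 of 10 urothelial marker genes had STAG1 and STAG2 peaks within 10 kb in both libraries in either state, close to the share of all protein-coding genes. Such peaks lay near 2 or 3 of 5 fibroblast and 2 of 5 immune markers, lists too short to set against it. For CTCF these numbers were 8, 3 and 4 in both states.

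The families differed in how many members lay near a peak. A member was counted as occupied in a group when both libraries had a peak within 10 kb of the gene. In proliferating cells STAG1 occupied 18 members, and in quiescent cells 17, which is 32.1% and 30.4% of the 56, where 69.8% and 68.0% of all protein-coding genes were occupied. STAG2 occupied 18 and 16 members, 32.1% and 28.6%, against 71.8% and 70.4% of all genes. CTCF occupied 20 and 21 members, 35.7% and 37.5%, against 73.6% and 73.2% of all genes. Most of the occupied members were S100a genes. Between 12 and 13 of the 15 S100a genes were occupied in every group, at most 1 of the 14 Sprr genes, between 1 and 5 of the 21 Lce genes, and 3 or 4 of the 6 single genes. These shares carry no test. Members are short genes, with a median length of 1.75 kb against 17.1 kb for all protein-coding genes, so the window of a member covers less sequence than that of most genes.

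**Figure D1:**
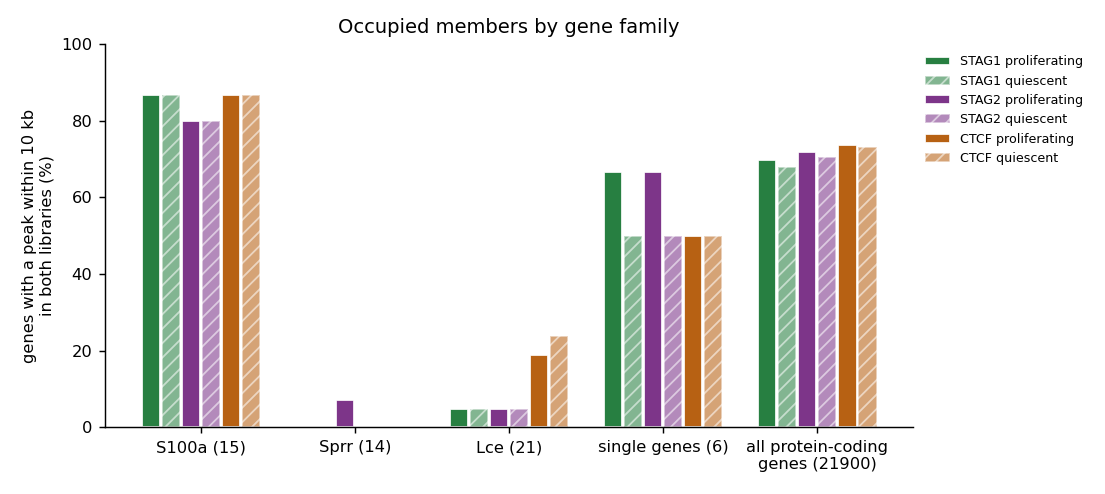
Bars give the percentage of genes with a peak within 10 kb in both libraries of a group, for the 4 kinds of member (number of genes in parentheses) and for all 21900 protein-coding genes. S100a genes stand at 80.0% or 86.7% in every group, Sprr genes at 0% or 7.14%, and all genes between 68.0% and 73.6%.

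A density per megabase, which does not depend on gene length, was also highest over the S100a genes in every library. From S100a1 to S100a9 the 12 libraries had between 14 and 22 peaks, or 68.4 to 107 per Mb, where their whole lists had 12.6 to 26.4 per Mb over the genome. The stretch of S100a11 and S100a10 held 46.8 to 93.5 peaks per Mb. Both S100a stretches were above the genome density of the same list in every library. From Sprr2a1 to Sprr4 there were 0 to 5 peaks, or 0 to 16.4 per Mb, and only in STAG1 quiescent replicate 2, with 16.4 against 13.5 per Mb, was the density above that of its own list. In that library, and in STAG2 proliferating replicate 2 with 9.85 against 2.3 per Mb, the Sprr stretch was denser than the Lce stretch. The Lce stretch had 1 to 11 peaks, or 2.3 to 25.3 per Mb, and the stretch from Crnn to Tchh 4 to 10 peaks, or 12.3 to 30.8 per Mb.

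Sites were made by merging peaks of all libraries that shared at least 1 bp, and the cluster held 122 of 114651 sites. Of these, 65 were called in both libraries of at least 1 group, 21 in at least 11 libraries and 18 in all 12. The 21 sites were unevenly placed. The longest stretch without one, 1370 kb between the sites upstream of S100a9 and at Lor, held S100a7l2 alone, and 906 kb of it, with no member, had no site called in both libraries of any group. Between the site at chr3:92106402-92106994, upstream of Lor, and the site at chr3:92998572-92999185, downstream of Lce3f, no site was called in at least 11 libraries over 892 kb, a stretch that held 35 members: all 14 Sprr genes, Ivl and 20 of the 21 Lce genes. A shorter stretch of 229 kb without such a site held Crnn and Flg, and one of 56.3 kb held S100a8 and S100a9. No site was called in both libraries of any group over 325 kb that held 13 Sprr genes, nor over 234 kb that held 12 Lce genes.

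**Figure D2:**
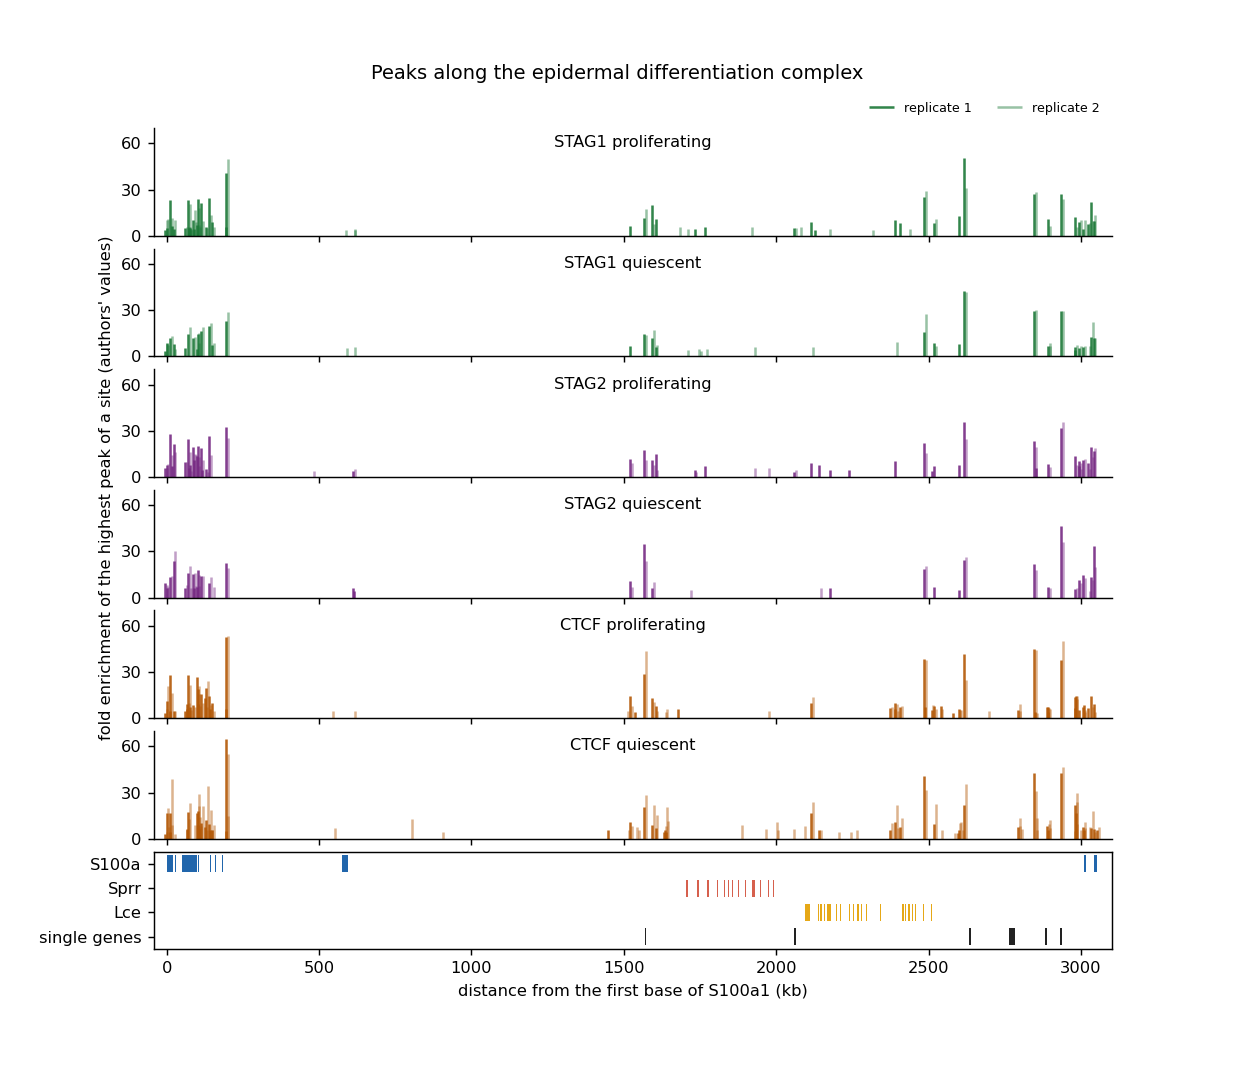
Vertical lines give the fold enrichment (authors' values) of the highest peak at each site along the cluster, by distance from the first base of S100a1 in kb, with replicates 1 and 2 drawn side by side, and the bottom panel shows the members by family. Lines crowd over the S100a genes at either end and are low or missing over the Sprr genes, and the site downstream of Lce3f stands at the far edge of the 892 kb stretch.

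Among the sites called in at least 11 libraries, 8 were described by their mean percentile, the rank of a site's fold enrichment within the list of its own library. Fold enrichment and q-values are the authors', and no common scale of the lists is known. The site at chr3:90709648-90710630 lies 14525 bp upstream of S100a9, which with S100a8 encodes calprotectin. Its fold enrichment was 40.9 and 49.9 for STAG1 in proliferating and 23.0 and 29.0 in quiescent cells. For STAG2 the values were 32.4 and 25.5, then 22.3 and 19.0, and for CTCF 53.0 and 53.7, then 64.7 and 55.3. Both STAG proteins had their higher pair in proliferating cells, and CTCF had its higher pair in quiescent cells. Such orders between libraries, here and below, are descriptions with no test.

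Tchh encodes trichohyalin, a structural protein of the hair follicle's inner root sheath, and carried the site with the highest mean percentile of the cluster, 93.2 of 100. The site, chr3:93443614-93448049, spans 4436 bp of the gene with 1 to 3 peaks in a library, and its summit lay 5026 bp after the start, in the far part of the gene. STAG1 gave 27.3 and 24.0 in proliferating and 29.7 and 29.2 in quiescent cells. STAG2 gave 32.1 and 35.4, then 46.4 and 35.9, and CTCF gave 38.0 and 50.3, then 43.0 and 46.7. All 12 libraries called the site, while none had a peak at either end of the gene, here the 1 kb on each side of the first and last base.

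Lor encodes loricrin, a main component of the cornified envelope, and its site at chr3:92080279-92081931 lay over the 3′ part of the gene, 2340 bp after the start. STAG1 gave 11.5 and 17.3 in proliferating and 14.6 and 13.8 in quiescent cells, STAG2 17.8 and 11.1, then 34.6 and 23.5, and CTCF 28.8 and 43.5, then 20.9 and 28.4. For STAG2 both quiescent values were above both proliferating ones. For CTCF both proliferating values were above both quiescent ones, by as little as 28.8 against 28.4. Lor was the only one of the 6 single genes with a peak at a gene end in all 12 libraries, and none of these peaks reached the RefSeq promoter window.

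A further 3 sites of this kind lay between genes. Upstream of Crnn, which encodes cornulin, the site at chr3:93130345-93131017 stood 14123 bp before the start. STAG1 gave 50.4 and 30.9, then 42.4 and 41.9, STAG2 35.4 and 25.0, then 24.4 and 26.4, and CTCF 41.4 and 24.9, then 22.0 and 35.9. The states overlapped for each protein. The site at chr3:93359893-93360600 was 33436 bp upstream of Rptn, which encodes repetin, a member of the fused S100 family. Its STAG1 values were 27.0 and 28.7, then 29.3 and 30, its STAG2 values 23.3 and 19.7, then 21.7 and 17.7, and its CTCF values 44.7 and 44.3, then 42.7 and 31.3. At chr3:92998572-92999185, 5442 bp downstream of Lce3f, STAG1 gave 25.3 and 29.1, then 16.1 and 27.5, STAG2 21.8 and 15.8, then 18.4 and 20.8, and CTCF 38.3 and 37.6, then 41.1 and 31.6. CTCF values exceeded every STAG value of their site in all 4 libraries upstream of Rptn and downstream of Lce3f.

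Flg, which encodes filaggrin, a protein that bundles keratin filaments, had no peak within 10 kb in any library, and neither did Crnn. The remaining 2 sites named by this rule lay among the S100a genes. The site at chr3:90585254-90587547, within the S100a3 model, had fold enrichments of 14.5 to 24.5 for the 8 STAG libraries and 17.3 to 27.8 for the 4 CTCF libraries. The site at chr3:90614418-90615931, 1171 bp downstream of S100a6, had 13 to 23.8 and 17.8 to 29.3. S100a3 encodes a calcium-binding protein of the hair cuticle. Its model of 90560356 to 90602706 spans S100a2, so peaks within 10 kb of S100a2 count for both genes.

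**Figure D3:**
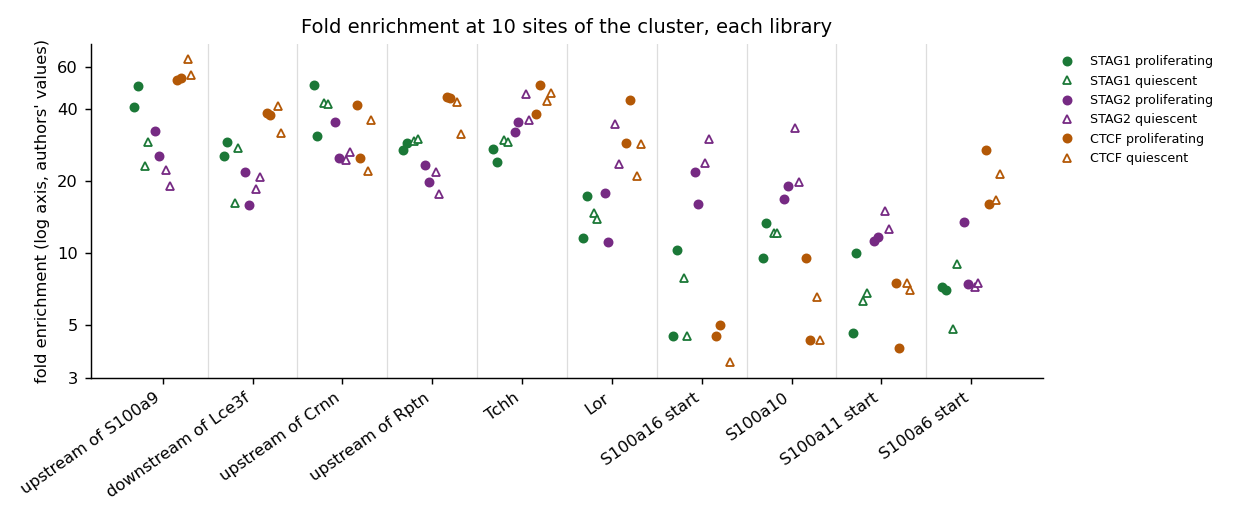
Points give the authors' fold enrichment (log axis) in each library at 10 sites, coloured by antibody, filled circles for proliferating and open triangles for quiescent cells. CTCF points are the highest at the site upstream of S100a9, reaching 64.7, while STAG2 points lie above CTCF at the S100a16 start and S100a10, where they reach 30 and 33.2.

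S100a genes encode small calcium-binding proteins with EF-hand motifs. By the same rule at gene ends, STAG1 occupied 14 members in proliferating cells and 10 in quiescent cells, where 48.7% and 47.0% of all protein-coding genes were occupied. STAG2 occupied 13 and 12, against 54.6% and 54.2% of all genes, and CTCF 12 and 9, against 50.1% and 46.6%. S100a genes made up 12 and 9, 12 and 11, and 11 and 8 of these. A peak at a gene end was called in all 12 libraries for S100a1, S100a13, S100a14, S100a6, S100a7a, S100a11 and S100a10, that is 7 of 15, and for Lor. These 8 of 56 members stand beside 36.3% of all protein-coding genes with a peak at a gene end in all 12 libraries, and the 37 members with none in any library beside 32.0% of all genes. Within 10 kb, 16 members had a peak in all 12 libraries, against 62.1% of all genes, and 17 had none in any, against 16.1%. S100a1 and S100a13 overlap at their starts, and 1 site at chr3:90513719-90515214 served both. There, STAG1 gave 5.0 and 11.0 in proliferating and 8.7 and 7.7 in quiescent cells, STAG2 8.0 and 8.7, then 6.0 and 6.7, and CTCF 11.5 and 21, then 16.7 and 20. S100a14, expressed in epithelia, had a site at chr3:90525266-90528113 with 11.7 to 28.2 over the 8 STAG libraries and 16.3 to 39.1 over the CTCF libraries. For S100a7a, a mouse relative of psoriasin, the site at chr3:90652788-90653367 had 9.7 to 26.8 for STAG and 8.3 to 19.0 for CTCF.

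At the start of S100a6, which encodes calcyclin, CTCF was the protein with the higher values. The site, chr3:90612486-90614189, had CTCF fold enrichments of 27.0 and 16 in proliferating and 16.7 and 21.3 in quiescent cells. STAG1 gave 7.2 and 7.0, then 4.8 and 9.0, and STAG2 13.5 and 7.4, then 7.2 and 7.5. Every CTCF value was above every STAG value at this site. The match CCACTAGAGGGC, in capitals in the S100a6 sequence above, lies at chr3:90612792-90612803, 91 bp before the start. The CTCF summit was 29 bp from it. S100a6 was the only member whose promoter window held the CTCF core letters, 1 of 56 windows, or 1.79%, where 2.43% of all 32851 promoter windows held them. A match is a description of letters, not a bound site, and a window without one says only that these letters are not in it.

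STAG2 ranked higher than STAG1 at S100a16, S100a10 and Tchh, by percentile within the lists. At S100a16, chr3:90536729-90538466, with the summit 80 bp after the start, STAG2 fold enrichment was 21.7 and 16 in proliferating and 23.7 and 30 in quiescent cells. STAG1 gave 4.5 and 10.3, then 7.8 and 4.5, and CTCF gave 4.5 and 5.0 in proliferating cells, no peak in quiescent replicate 1 and 3.5 in quiescent replicate 2. The mean percentile was 86.7 for STAG2, between 83.8 and 92.0, and 32.8 for STAG1, between 9.11 and 64.4. CTCF had a mean percentile of 11.4 there, over the libraries with a peak. So the start of S100a16 ranked high in the STAG2 lists and low in the CTCF lists.

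S100a10 encodes p11, a partner of annexin A2, and its site at chr3:93554471-93556269 had STAG2 values of 16.8 and 19.0, then 33.2 and 19.8. STAG1 gave 9.5 and 13.3, then 12.1 and 12.1, and CTCF 9.5 and 4.3, then 6.5 and 4.3. STAG2 percentiles ran from 79.8 to 91.7 and STAG1 percentiles from 54.6 to 73.4. At Tchh they ran from 94 to 97.5 and from 87.5 to 90. At the start of S100a11, a calcium-binding protein found in the cornified envelope, STAG2 gave 11.2 and 11.6, then 14.9 and 12.6, and STAG1 4.6 and 10.0, then 6.3 and 6.8. Its STAG2 percentiles, 63.2 to 74.4, overlapped those of STAG1, 9.68 to 64.0. Of the 23 cluster sites called in all 8 STAG libraries, 3 had every STAG2 percentile above every STAG1 percentile and 0 had the reverse, where 8.2% and 9.95% of the 21665 such sites of the genome did. The lowest difference was at the site upstream of Lor, with mean percentiles of 50.2 for STAG2 and 69.0 for STAG1. These sites were picked out by their ranks, so no test was made on them.

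S100a8 and S100a9, at the end of their block, lay in 56.3 kb between the sites at S100a7a and upstream of S100a9, each called in all 12 libraries. S100a8 had a peak within 10 kb in 9 libraries, at chr3:90664141-90664723, 4638 bp upstream of its start. STAG1 gave 8.7 and 6.0, then 7.7 and 9.0, and CTCF 10.0 and 5.0, then 5.7 and 9.3, while STAG2 had a peak in quiescent replicate 2 alone, at 7.0. S100a9 had no peak within 10 kb in any library. S100a7l2, alone in its block, had one in 2 libraries.

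Sprr genes encode small proline-rich proteins that are cross-linked into the cornified envelope. None of the 14 had a peak at a gene end in both libraries of any group. No library had a peak within 10 kb of 7 of them, namely Sprr2b, Sprr2d, Sprr2e, Sprr2f, Sprr2i, Sprr3 and Sprr4. The only Sprr gene occupied in a group was Sprr2a2, by STAG2 in proliferating cells, through a site at chr3:92246152-92246659 with fold enrichments of 4.8 and 3.5. Sprr2a1, Sprr2a2 and Sprr2a3 are close copies of each other, and how reads with several matches were placed is not given in the sources used here. Its part in the few calls there was not tested.

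Lce genes encode late cornified envelope proteins. Of the 21, Lce3f was the only one with a peak within 10 kb in all 12 libraries, through the site downstream of it described above, and 7 had none in any library: Lce1a2, Lce1j, Lce1k, Lce1l, Lce3b, Lce3d and Lce3e. None had a peak at a gene end in both libraries of a group. CTCF occupied Lce6a in both states, through a site at chr3:92628013-92628619, 6655 bp upstream of its start. CTCF gave 10.1 and 13.6 in proliferating and 17.1 and 24.1 in quiescent cells there. STAG1 had peaks in 2 of 4 libraries, at 8.7 and 6.1, and STAG2 in 1, at 9.2. Near Lce3a, at chr3:92920289-92920974, CTCF gave 7.0 and 8.0, then 7.5 and 13.5, and STAG1 had 1 peak, at 8.5.

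CTCF was called in all 4 libraries with no STAG peak in any library at 7 sites of the cluster, 5.74% of its sites, where 7012 sites of the genome, or 6.12%, had this pattern. The share in the cluster was near that of the genome. Rptn, with a peak within 10 kb in all 12 libraries and none at a gene end, had 2 of these sites downstream of it, at chr3:93403301-93403822 with CTCF values of 6.5 to 9.5 and at chr3:93405599-93406386 with 4.0 to 12.0. Next to them, a site at chr3:93406937-93407478 was called in all 8 STAG libraries, with 6.0 to 11.0, and in 2 CTCF libraries, at 7.0 in each. The reverse pattern, STAG without CTCF, was seen at 1 site for STAG2, 0.82% of the cluster's sites against 1.97% of the genome's, and at 0 sites for STAG1, against 0.829% of the genome's. It lay in S100a4, which encodes a calcium-binding protein linked to cell motility, at chr3:90604269-90605098. STAG2 gave 11.2 and 14 in proliferating and 6.3 and 7.3 in quiescent cells there, and STAG1 gave 4.5 and 9.0 in proliferating cells and no peak in quiescent ones. STAG2 values in proliferating cells were thus above those in quiescent cells at this site.

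Distances between summits were read where all 3 proteins were called. A site is made of overlapping peaks, which by itself keeps its summits near each other, and no distance for the genome's sites is given to set beside these. At the 21 sites called in at least 11 libraries, the median distance of the STAG1 summit from the CTCF summit was 32 bp, and 14 of 21 were within 100 bp. For STAG2 the median was 25 bp and 16 were within 100 bp. The summits were widest apart in S100a3, by 690 bp and 674 bp, at S100a16, by 314 bp and 432 bp, and at S100a11, by 190 bp and 394 bp. The site in S100a3 held 1 to 2 peaks in a library, so its summits may belong to different peaks.

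The comparison of quiescent with proliferating cells asks whether binding over these genes differed between the states. STAG1 had 47 and 47 peaks in the cluster in the proliferating state and 35 and 41 in the quiescent state. STAG2 had 51 and 42, then 35 and 34. CTCF had 59 and 58, then 50 and 82. Both STAG proteins had fewer cluster peaks in every quiescent library than in any proliferating one, and the CTCF libraries overlapped. The mean log2 ratio over the 3 antibodies was -0.19 (exact two-sided permutation of state within antibody, 216 arrangements, p = 0.259, adjusted p = 0.519 over 6 tests by Benjamini-Hochberg). By antibody it was -0.31 for STAG1, -0.43 for STAG2 and 0.17 for CTCF. The STAG change less the CTCF change, a contrast outside the 6 tests and not adjusted, was -0.54 (exact permutation p = 0.12). Without CTCF quiescent replicate 2 the log2 ratio was -0.32 (exact permutation p = 0.00926, the smallest that 108 arrangements allow), so this library decided on which side of 0.05 the unadjusted value fell. With peaks of −log10 q of at least 5 the ratio was -0.05 (exact permutation p = 0.75), and with the 20000 strongest peaks of each list -0.04 (exact permutation p = 0.778).

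The lists themselves differed in length, so the cluster's share of each list was read as well. STAG1 had 1.21 and 0.931 cluster peaks per 1000 peaks of the list in proliferating and 0.983 and 1.12 in quiescent cells. STAG2 had 1.08 and 0.921, then 0.911 and 0.992, and CTCF had 1.03 and 1.05, then 0.965 and 1.14. The states overlapped for every antibody. The mean difference was -0.0177 peaks per 1000 (exact permutation p = 0.75, adjusted p = 0.75), and the quiescent lists of both STAG proteins were also shorter than the proliferating ones.

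**Figure D4:**
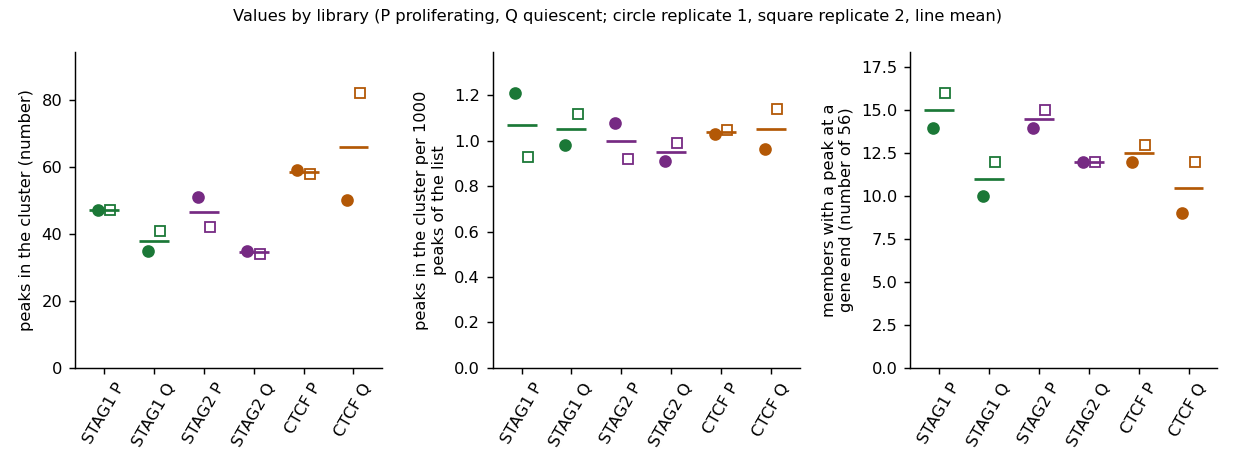
Each point is a library (circle replicate 1, square replicate 2) and each line a group mean, for the number of peaks in the cluster, the same per 1000 peaks of the list, and the number of members with a peak at a gene end. STAG points are lower in quiescent cells in the left and right panels, and the states overlap in the middle panel, between 0.911 and 1.21.

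Members with a peak within 10 kb numbered 23 and 25 for STAG1 in proliferating and 17 and 24 in quiescent cells. They numbered 27 and 21, then 18 and 20, for STAG2 and 20 and 21, then 21 and 28, for CTCF. The mean difference was -1.5 members (exact permutation p = 0.565, adjusted p = 0.678). STAG and CTCF differences went opposite ways, by -8.25 members (exact permutation p = 0.0556), which did not pass 0.05. Members with a peak at a gene end numbered 14 and 16, then 10 and 12, for STAG1, 14 and 15, then 12 and 12, for STAG2, and 12 and 13, then 9 and 12, for CTCF. Quiescent libraries were below proliferating ones for both STAG proteins, and the CTCF groups met at 12. The mean difference was -2.83 members (exact permutation p = 0.0185, adjusted p = 0.111), with -4.0 for STAG1, -2.5 for STAG2 and -2.0 for CTCF. It did not pass after adjustment over the 6 tests. With no low p in another of the 6, even the smallest p that 216 arrangements allow would not pass 0.05 once adjusted. The adjusted value therefore does not decide whether this count differed between the states. Same-numbered libraries of a state deviated together across antibodies (correlations of 0.14 to 0.44 over 18250 sites), so the antibodies are not independent replicates of the state, and p-values from permuting the state within each antibody may be too small. When the state was permuted over all antibodies at once, an alternative added after seeing the data, the exact permutation p was 0.333, the smallest that 6 arrangements allow. With peaks of −log10 q of at least 5 the mean difference was -1.83 members (exact permutation within antibody, p = 0.0185, not adjusted). With every list cut to its 20000 strongest peaks it was -0.5 members (exact permutation p = 0.583).

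The members behind these counts can be named. STAG1 had a peak at a gene end in both proliferating but not both quiescent libraries at S100a2, S100a4, S100a5 and Ivl, 4 of 56 members, where 4.74% of all genes had this pattern, and the reverse at 0 members, against 3.0%. STAG2 had it at S100a2 alone, against 2.89% of genes, and the reverse at 0 members, against 2.51%. CTCF had it at S100a16, S100a3 and S100a2, against 5.85%, and the reverse at 0, against 2.32%. The pattern does not mean that peaks were absent in quiescent cells. S100a5, S100a16 and S100a3 each had a gene end peak in 11 of the 12 libraries. Within 10 kb, the pattern of both proliferating but not both quiescent libraries held for STAG1 at Ivl, against 3.63% of genes. For STAG2 it held at Ivl and Sprr2a2, against 2.8%. The reverse held at 0 members for both, against 1.84% and 1.43% of genes. For CTCF the pattern held at Lce1m, against 2.79%, and the reverse at Lce1a1 and Lce1b, against 2.4%. These counts are of a few members each and carry no test.

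A site was called lost when both proliferating libraries of an antibody and no quiescent one held it, and gained in the reverse case. In the cluster STAG1 lost 4 of 31 sites, or 12.9%, where 7.75% were lost over the genome, and gained 0 of 26, where 1.28% were gained. STAG2 lost 5 of 33, or 15.2%, against 10.2%, and gained 0 of 26, against 1.93%. CTCF lost 3 of 45, or 6.67%, against 4.58%, and gained 4 of 46, or 8.7%, against 7.64%. These shares rest on 5 sites or fewer each and were not tested against the genome's.

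One site was lost for all 3 proteins. It lay at chr3:90589159-90589805, within the S100a3 model and before S100a2, a calcium-binding protein of keratinocytes. STAG1 gave 4.8 and 3.7 in proliferating cells, STAG2 8.0 and 4.0, and CTCF 7.2 and 5.3, and no quiescent library had a peak. Ivl encodes involucrin, an early scaffold of the cornified envelope, and its site at chr3:92571644-92572419, in the body of the gene, was lost for both STAG proteins. STAG1 gave 5.0 and 5.0 and STAG2 3.5 and 4.5 in proliferating cells, and no CTCF library had a peak there. All of these values were at or below 8.0, where the median fold enrichment of a whole list was 6.99 to 9.81. With peaks of −log10 q of at least 5 alone, 1 site was lost for STAG1 and 1 for STAG2 in the cluster.

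STAG2 was lost in addition at a site 35003 bp upstream of Lor, chr3:92117828-92118420, with 14.9 and 4.7 in proliferating cells, at the Sprr2a2 site, and 13283 bp upstream of S100a11, chr3:93506954-93507439, with 6.9 and 4.9. At the site upstream of Lor, STAG1 had peaks in quiescent cells, at 5.9 and 7.2, and CTCF at 6.8 and 15.3. CTCF was lost in S100a3 at chr3:90580807-90581283, with 6.0 and 5.5, and 4918 bp upstream of Lce1m at chr3:93023754-93024200, with 5.2 and 8.7. CTCF gains lay 5266 bp downstream of S100a6, with 6.3 and 8.3 in quiescent cells, 62319 bp upstream of Sprr2a1, with 4.3 and 11.7, 1674 bp downstream of Lce1b, with 5.8 and 5.6, and 2781 bp beyond S100a10, with 6.0 and 7.5. By the definition of a gain, these sites had no CTCF peak in a proliferating library. STAG2 peaks were also present at the Lce1b site, at 7.9 in proliferating replicate 1 and 6.3 in quiescent replicate 2.

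The numbers of STAG1 and STAG2 peaks in the cluster were compared within each state. The mean log2 ratio of STAG2 to STAG1 was -0.08 (exact two-sided permutation of antibody within state, 36 arrangements, p = 0.444, adjusted p = 0.667). Within proliferating cells the ratio was -0.02, and within quiescent cells -0.14. For 36 arrangements the smallest possible p is 0.0556, so this test could not pass 0.05.

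The share of cluster STAG peaks that overlapped CTCF was set against 1 CTCF list for both states. It was 72.3% and 59.6% for STAG1 in proliferating and 85.7% and 68.3% in quiescent cells, and 62.7% and 61.9%, then 74.3% and 76.5%, for STAG2. The STAG2 states did not overlap and the STAG1 states did. The mean difference was 12.0 percentage points (exact permutation, 36 arrangements, p = 0.111, adjusted p = 0.333), with 11.0 for STAG1 and 13.1 for STAG2. It was 4.75 points (exact permutation p = 0.333) when each state's own CTCF list was used and 6.24 points (exact permutation p = 0.222) with peaks of −log10 q of at least 5. The smallest exact permutation p that 36 arrangements allow is 0.0556. These tests of the share could therefore not pass 0.05, and they do not decide whether it differed between the states. Over the whole lists the shares were 76.8% and 61.8%, then 78.4% and 76.8%, for STAG1 and 65.3% and 61.6%, then 70.7% and 74.8%, for STAG2.

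RefSeq promoter windows were found for 52 of the 56 members, with 56 windows in all. S100a10, Lce1f, S100a2 and S100a14 had none in the table. A peak covered the window in all 12 libraries for 3 windows, 5.36%, those of S100a13, S100a1 and S100a3, where 18.8% of all 32851 windows were covered in all 12. In 49 windows, or 87.5%, no library had a peak, against 52.7% of all windows. The 49 included every Sprr and Lce window and all 6 single genes.

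The letters of these windows differed between families. The CTCF match in S100a6 overlapped no AP-1 match. The AP-1 motif TGANTCA, which reads the same on both strands, was in 17 of 56 member windows, or 30.4%, against 7.81% of all windows. It was in 9 of 14 Sprr windows, or 64.3%, in 5 of the 6 single-gene windows (Crnn, Flg, Ivl, Lor and Rptn), in 3 of 16 S100a windows and in 0 of 20 Lce windows. The 3 include a second window of S100a16, chr3:90540896-90541195, which had no peak in any library and is not printed above. In Sprr2b, Sprr2d, Sprr2e, Sprr2f, Sprr2h, Sprr2i and Sprr2k a TGAGTCA lay at positions from -198 to -193 from the start, in similar sequence. Those windows are therefore not independent counts. The capitals in the Sprr2d, Sprr1a and Ivl sequences above show such matches in windows without a peak, and those in the S100a11 sequence show them in a window with peaks. Median GC content was 53.5% for S100a windows, 45% for Sprr, 47.0% for Lce and 44.6% for the single genes, against 52.7% for all windows. AP-1 binding was not measured. The S100a windows, those of the most occupied family, had the highest median GC content, and its part in the peak calls was not tested.

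Other genes of cornification and the neighbours within the cluster were counted by the same rule. Of 27 cornification genes elsewhere in the genome, such as the transglutaminase gene Tgm1 and the keratin genes Krt1 and Krt10, 16 were occupied by STAG1 in proliferating and 17 in quiescent cells, 16 and 16 by STAG2, and 19 and 18 by CTCF. These shares, between 59.3% and 70.4%, stood nearer to all protein-coding genes than those of the members did, though this was not tested. Of the 14 other protein-coding genes inside the cluster, 0 and 1 were occupied by STAG1, 2 and 1 by STAG2, and 3 and 3 by CTCF. The neighbours Prr9 and Pglyrp3 made up most of these, and they share the sites of the stretch they lie in.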

How the data were processed

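The submitters' processing notes name BWA, Picard, bcl2fastq, HOMER and MACS2 and the build mm10, without versions. The authors deposited 1 peak list per library, so replicates were not pooled. In the deposited lists each peak carries a ratio, its fold enrichment, with p and q as −log10 values. An integer score per peak, also deposited, was not used. Settings of the aligner and caller are not given in the sources used here. For each library, the smallest −log10 q lay between 1.31 and 1.57. Reads, and so depth, are not in the lists, and the number of peaks limits precision. The sample titled input was not analysed here, so which control the fold refers to was not settled.

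Libraries were grouped from the labels. Genes came from a table of GRCm38.p6 without strand or exons, so gene ends are 1 kb around either end, and strands came from the RefSeq promoter table. Peaks matched when they shared at least 1 bp. The 6 tests were exact two-sided permutations over libraries, with Benjamini-Hochberg adjustment, 216 arrangements and a smallest p of 0.00926 for the first 4. The sites named were the 8 of highest mean percentile among those in at least 11 libraries, 10 lost or gained sites, sites with STAG and no CTCF, and the 6 single genes. Members at every gene end or with no peak were named too. Of 13 lost or gained sites, the Sprr2a2 site was named outside the rule after its values were seen, as were the STAG2 and STAG1 ranks and the sites near S100a8, Lce6a and Lce3a. Members and lists were chosen with earlier results of these data known. Same-numbered STAG1 and STAG2 libraries correlated in their deviations by 0.38 in proliferating and 0.19 in quiescent cells, so numbers pair libraries within a state. Alternatives were peaks with −log10 q of at least 5, the 20000 strongest peaks of each list, other windows, summits within 200 bp and leaving out each library. Code was checked on simulated peak lists. Python 3.11.15, pandas 2.3.3, numpy 2.4.6 and matplotlib 3.10.9 were used.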

Additional observations from a re-analysis of the deposited data

How the results depend on the processing

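The log2 ratio of cluster peaks between states ran from -0.32 to -0.08 when each library was left out, and it was -0.32 (exact permutation p = 0.00926) without CTCF quiescent replicate 2, -0.05 with −log10 q of at least 5 and -0.04 with 20000 peaks a list. The cluster share changed sign, to 0.00351 per 1000 with −log10 q of at least 5, and ran from -0.064 to 0.0287 over left-out libraries, being above 0 without STAG1 proliferating replicate 1 (0.0287), STAG1 quiescent replicate 1 (0.00474), STAG2 proliferating replicate 1 (0.00849) or CTCF quiescent replicate 1 (0.012). Members within 10 kb ran from -2.67 to -0.333 and changed sign to 0.667 with −log10 q of at least 5 and to 0.167 with 20000 peaks a list. Members at a gene end ran from -3.33 to -2.33 over left-out libraries. They were -1.83 (exact permutation p = 0.0185) with −log10 q of at least 5 and -2.33 (exact permutation p = 0.037) with a window of 2 kb. With 20000 peaks a list they were -0.5 (exact permutation p = 0.583). STAG2 against STAG1 ran from -0.15 to -0.01 and was 0.04 with 20000 peaks, and the share of STAG peaks with CTCF ran from 7.69 to 16.4 percentage points and was 4.75 with each state's own CTCF list and 6.24 with −log10 q of at least 5. The cause of these shifts was not tested. With 20000 peaks a list the cluster held 41 sites, 10 of them in at least 11 libraries, 1 lost STAG1 site, 2 lost STAG2 sites, and 0 lost and 2 gained CTCF sites. In that setting, with fewer peaks by construction, STAG1 occupied 12 members in proliferating and 14 in quiescent cells, STAG2 14 and 14, and CTCF 11 and 13. The share of all protein-coding genes in that setting is not given here, so these counts have nothing to stand beside. With −log10 q of at least 5, 1 site was lost for STAG1 and 1 for STAG2. With summits within 200 bp as the match, 2 STAG1 sites were gained. Between states the replicates share only a number: deviations of same-numbered libraries correlated by -0.08, -0.08 and -0.38 for STAG1, STAG2 and CTCF over 18250 sites. Within a state they correlated by 0.14 to 0.44 across antibodies. With the replicate block the 6 values were -0.2, -0.0177, -1.5, -2.83, -0.08 and 12 in the order of the report, and the gene end value had an exact permutation p of 0.0312. With the crossed pairing, added after seeing the data, its value was -2.83 and its exact permutation p 0.0625. With the state permuted over all antibodies at once, also added then, its value was -2.83 and its exact permutation p 0.333.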
